A study of Mus musculus with 2 samples.

Results

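Mitochondrial carriers of the SLC25 family, together with the pyruvate carrier subunits Mpc1 and Mpc2 and the uncoupling protein Ucp2, were examined in the liver of mice treated with an oligonucleotide against miR-122. The level of miR-122 itself was not analysed here. A gene belonged to the set if its symbol was Slc25a followed by a number or was one of these 3 names, and if the array annotation gave it a probe set of its own. That left 45 genes with 94 probe sets, out of 18193 genes on the array. The rule used gene names and no measured values. Ucp2, Mpc2 and genes of the family beyond these 45 were not analysed here.

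The study used 2 single-colour arrays, 1 per group. The antagomir-122 group received antagomir-122, a cholesterol-linked antisense oligonucleotide against miR-122, a microRNA abundant in hepatocytes. The control group received mm-antagomir-122, its scrambled counterpart. Both groups were injected at 80 mg/kg on each of 3 days, and liver RNA was taken 24 h after the last injection. RNA of 3 livers was pooled for each array, and the labels used here give no strain, sex or age. Every value is therefore 1 reading of 1 pool, and no error between animals or arrays can be given and no test was possible. Higher and lower mean that the antagomir-122 signal was above or below the control signal.

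Carriers of this family exchange metabolites, nucleotides, cofactors and ions across the inner mitochondrial membrane, which is otherwise nearly impermeable to them. In hepatocytes they link the matrix with the cytosol for ATP export, urea synthesis, gluconeogenesis, lipid synthesis and the transfer of reducing equivalents. The pyruvate carrier subunits belong to a separate protein family and admit pyruvate to the matrix. A few relatives lie elsewhere, such as Slc25a17 in the peroxisome and Slc25a46 on the outer mitochondrial membrane.

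The unit was the MAS5 signal of a probe set, a linear intensity that sets matching probes against mismatched ones. Each gene was read from its brightest probe set. Signals of different genes come from different probes, so only the ratio of the pools was compared. A signal floor of 238, the 60th percentile of mean log2 signal over non-control probe sets, was passed by 35 of the 45 carrier genes and by 10003 genes in all. The spread between probe sets of a gene, the SD of the difference of their log2 ratios divided by the square root of 2, was 0.28 over 3860 genes. With all genes above the floor split by signal into 3 equal parts, it was 0.35 over the 589 such genes of the dimmest part and 0.23 over the 1812 of the brightest. The 11 measured hepatocyte markers, albumin among them, had log2 ratios from -0.10 to 0.10, and the 5 skeletal muscle markers were all under the floor. Albumin and several other hepatocyte markers had signals above 16000 on both arrays, as did Slc25a5, Slc25a39 and Slc25a47. Whether ratios at such bright signals were compressed was not tested. The 18 spiked hybridization control probe sets had a median log2 ratio of -0.27. Scaling on them adds 0.27 to every ratio and moves the median of all genes from 0.0027 to 0.28, so directions are relative to the bulk of the genes.

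Slc25a51 and Slc25a45 stood highest among the carriers, followed by Slc25a34, and Slc25a16 was lowest. Of the 35 genes above the floor, 3 were at least 1.5-fold higher, against 5.12% of all genes, and 1 was at least 1.5-fold lower, against 2.62% of all genes. These are shares of 8.57% and 2.86% of the carriers. With so few genes, both counts are close to the background. Among all genes that differed by at least 1.5-fold, the share that was higher was 66.1% on the deposited scale, 51.6% with median centring and 96.4% with hybridization control scaling. Scaled on the hybridization controls, 8 carriers were at least 1.5-fold higher, against 16.9% of all genes, and 0 were lower, against 0.63%. The genes added by that scaling were Slc25a36, Slc25a29, Slc25a24, Slc25a53 and Slc25a46. The median log2 ratio of the 35 was -0.0046, with 17 genes above 0 and 18 below, beside 0.0027 and 50.3% above 0 over all genes. Within 1.2-fold lay 19 of the 35 (54.3%), compared with 62.5% of all genes. By the spread between probe sets of genes of like signal, the same 4 genes were more than 2 spreads from 0. The corresponding shares over all genes were 4.61% higher and 2.73% lower.

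**Figure D1:**
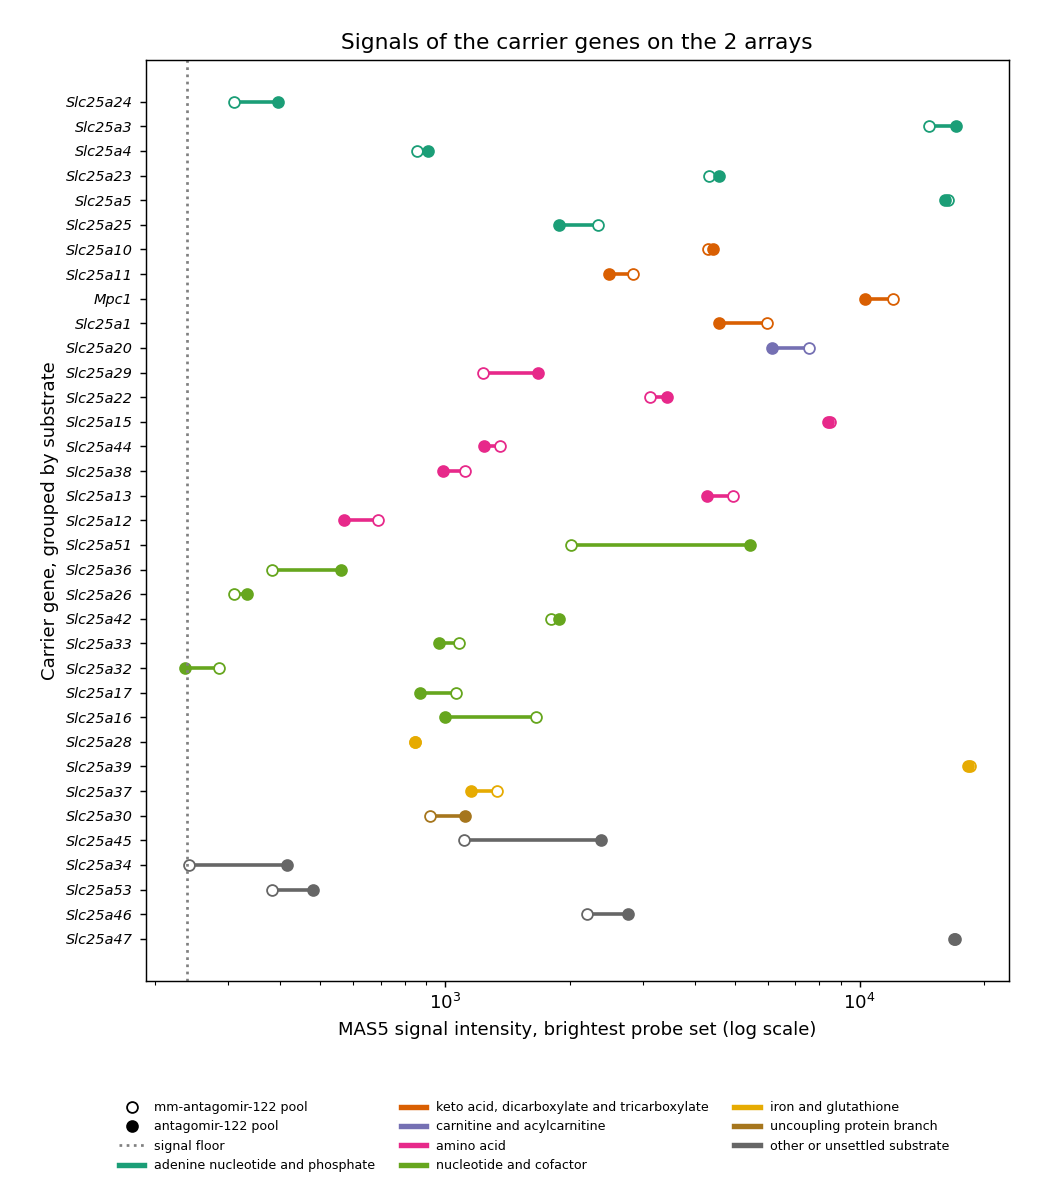
MAS5 signal (horizontal log axis, intensity units) of the brightest probe set of each of the 35 carrier genes above the floor, by substrate group, with open circles for the mm-antagomir-122 pool and filled circles for the antagomir-122 pool (1 array each, no error bars). The longest lines belong to Slc25a51 (5437 and 2016) and Slc25a45 (2373 and 1111), and most pairs of circles nearly touch.

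Promoter sequences are shown for Slc25a45, Slc25a34 and Slc25a16, since these genes lie near the ends of the range of ratios. That of Slc25a51 was not analysed here. Each is the 250 bases before the gene's start in RefSeq (GRCm38.p6). Capitals mark matches on either strand. The searches were for the GC box, spelled GGGCGG, and for the promoter element spelled CCAAT. The nuclear receptor half-site, spelled AGGTCA, and the core promoter element spelled TATAAA were searched as well. No matches overlapped in the windows shown. The motifs were chosen after the sequences had been read. Slc25a45 lies at chr19:5877572-5877821 on the plus strand, Slc25a34 at chr4:141623835-141624084 on the minus strand and Slc25a16 at chr10:62920383-62920632 on the plus strand, each printed 5′ to 3′ along its gene.
Slc25a45: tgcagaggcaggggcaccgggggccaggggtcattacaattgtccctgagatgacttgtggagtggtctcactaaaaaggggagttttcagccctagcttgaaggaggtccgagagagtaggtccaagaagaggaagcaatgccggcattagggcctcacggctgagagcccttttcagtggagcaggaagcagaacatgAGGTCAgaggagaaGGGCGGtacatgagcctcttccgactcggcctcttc
Slc25a34: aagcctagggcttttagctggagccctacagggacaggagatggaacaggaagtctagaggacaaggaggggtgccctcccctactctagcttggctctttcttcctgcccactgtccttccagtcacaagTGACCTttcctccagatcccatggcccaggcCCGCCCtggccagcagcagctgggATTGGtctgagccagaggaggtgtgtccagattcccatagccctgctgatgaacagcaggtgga
Slc25a16: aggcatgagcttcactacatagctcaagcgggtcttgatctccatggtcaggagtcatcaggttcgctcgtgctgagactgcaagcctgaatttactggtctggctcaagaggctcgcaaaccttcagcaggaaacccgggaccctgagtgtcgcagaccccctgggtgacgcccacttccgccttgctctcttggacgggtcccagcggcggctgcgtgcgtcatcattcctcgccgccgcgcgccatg
The Slc25a45 window held GGGCGG and AGGTCA. The Slc25a34 window held the same pair and also CCAAT, all on the opposite strand. None of the 4 motifs was found in the Slc25a16 window. Promoter entries matched 29 of the 35 genes, with 37 windows. Of these, 29 held GGGCGG (78.4%), 21 held CCAAT (56.8%), 5 held AGGTCA (13.5%) and 0 held TATAAA. Over the 10517 windows of all genes above the floor, the shares were 56.4%, 34.6%, 11.5% and 6.84%. Over all 32851 windows they were 32.7%, 33.8%, 14% and 12.4%. The arrays measured no promoter activity, and these matches are descriptions of the letters only.

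Carriers of nucleotides and cofactors held both the highest and the lowest gene. Slc25a51, the carrier that brings NAD into the matrix, had signals of 5437 in the antagomir-122 pool and 2016 in the control pool, 2.70-fold higher. Its second probe set gave 1097 and 647, a log2 ratio of 0.76, and the dimmest, close to the floor, gave 256 and 265, a log2 ratio of -0.05. Among probe sets above the floor, those of Slc25a51 differed from each other by more than any other carrier's, and their mean log2 ratio was 0.71. None of the 3 carries a suffix that marks cross-hybridisation.

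Slc25a16, a carrier linked to coenzyme A in the matrix, had signals of 1002 and 1662, which is 1.66-fold lower on its only probe set. Its log2 ratio of -0.73 was -0.71 with quantile normalization, -0.72 with loess correction and -0.46 when scaled on the hybridization controls, a value under 1.5-fold. Slc25a42, which carries coenzyme A and adenine nucleotides, had signals of 1882 and 1798 and a log2 ratio of 0.07. Slc25a17, the peroxisomal carrier of coenzyme A and related nucleotides, had 870.3 and 1065, a log2 ratio of -0.29. The coenzyme A carriers thus did not share a direction.

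Slc25a36 and Slc25a33 both carry pyrimidine nucleotides. Slc25a36 had signals of 561 and 382, which is 1.47-fold higher and just short of the threshold, while Slc25a33 had 967 and 1082, a log2 ratio of -0.16. The difference between these related carriers was not tested, because each pool was read once. The S-adenosylmethionine carrier gene Slc25a26 had 333 and 310.3, a log2 ratio of 0.10. Slc25a32, linked to folate and FAD transport, had 236 and 284, with the antagomir-122 signal under the floor. Its log2 ratio was -0.27, and its dimmer probe sets were both under the floor. As a group the 8 genes had 4 ratios above 0 and 4 below and a median of -0.05.

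The 5 carriers above the floor without a settled textbook substrate all had ratios above 0 as deposited, beside 50.3% of all genes. With median centring Slc25a47 lay at -0.05. The other 3 genes of the group were under the floor. Slc25a45, a carrier gene of the liver long listed as an orphan, had signals of 2373 and 1111, 2.14-fold higher on its only probe set. Slc25a34, another orphan, had 416 and 242, 1.72-fold higher, with the control signal just above the floor. Slc25a53 had 482 and 382, a log2 ratio of 0.33. Slc25a46, which acts on mitochondrial shape at the outer membrane, had 2760.1 and 2198 on its brightest probe set and 1550.4 and 1772 on the other, log2 ratios of 0.33 and -0.19. Slc25a47, a carrier found mainly in hepatocytes, had 16996 and 16929.7 and a log2 ratio of 0.01. The 5 genes had a median log2 ratio of 0.33 as deposited, 0.36 with quantile normalization and 0.37 with loess correction.

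**Figure D2:**
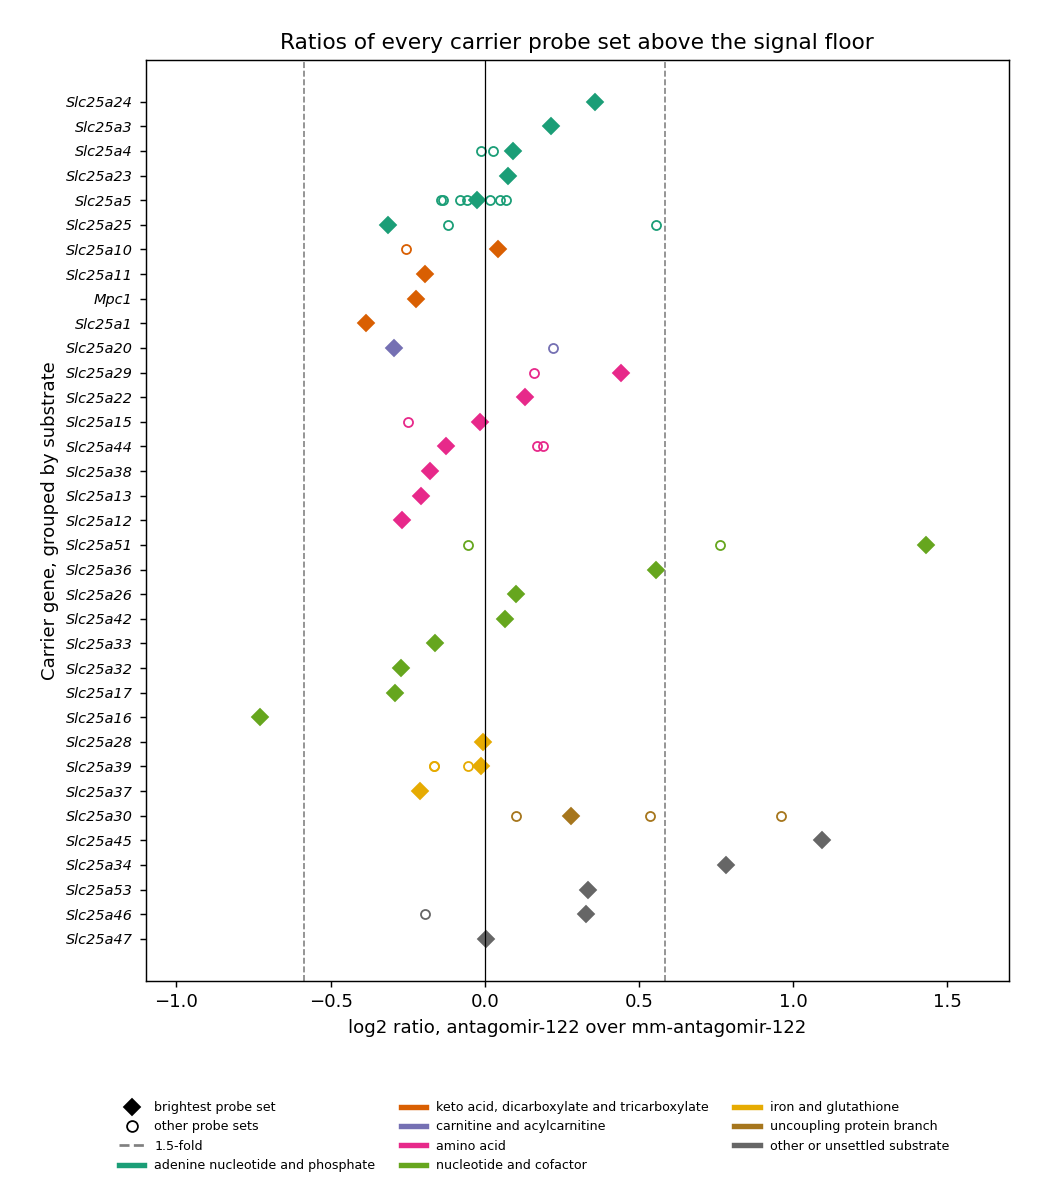
Log2 ratio of antagomir-122 over mm-antagomir-122 (horizontal axis) for each of the 61 carrier probe sets above the floor, with diamonds for the brightest probe set of a gene and open circles for its others; dashed lines are 1.5-fold. Slc25a51, Slc25a45 and Slc25a34 lie past the right line and Slc25a16 past the left one on their brightest probe sets, and the 3 probe sets of Slc25a51 run from -0.05 to 1.43.

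The carriers that supply and export ATP were close together in the pools. Slc25a5, the main ADP/ATP exchanger of liver, had signals of 16084 and 16361. Its 8 probe sets above the floor had log2 ratios from -0.14 to 0.07, although most have names ending in _x_at, which marks possible cross-hybridisation and readings that are not independent. Slc25a4, the exchanger of heart and muscle, had 912 and 855 and log2 ratios from -0.01 to 0.09 over its 3 probe sets. The phosphate carrier gene Slc25a3 had 17047 and 14670, a log2 ratio of 0.22. Slc25a4 and Slc25a5 are near relatives in sequence, and the array may not fully separate them.

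The calcium-regulated ATP-Mg/phosphate carriers differed more. Slc25a24 had signals of 396 and 309, Slc25a23 had 4571 and 4341, and Slc25a25 had 1884 and 2344. Their log2 ratios were 0.36, 0.07 and -0.32. The other probe sets of Slc25a25 had log2 ratios of -0.12 and 0.55, the last at signals of 317 and 216 with the control under the floor. Its direction thus depended on that dim probe set, and the mean over all its probe sets was 0.04. In this group 0 of 6 genes passed 1.5-fold in either direction.

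Carriers of keto acids and carboxylates gave 3 of 4 ratios below 0 as deposited, with quantile normalization and with loess correction, but 1 of 4 when scaled on the hybridization controls. Slc25a1, the citrate carrier that exports acetyl units for fatty acid and sterol synthesis, had signals of 4579.9 and 5987, a log2 ratio of -0.39. Mpc1 had 10323 and 12055, a log2 ratio of -0.22. The oxoglutarate carrier gene Slc25a11 had 2485 and 2842, a log2 ratio of -0.19. The dicarboxylate carrier gene Slc25a10 had 4431 and 4301 on its brightest probe set and 2646 and 3159 on the other, log2 ratios of 0.04 and -0.26. None of the 4 genes passed 1.5-fold, and the group's median was -0.21.

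Slc25a20, the carnitine/acylcarnitine exchanger that brings fatty acyl groups to β-oxidation, had signals of 6158 and 7549, a log2 ratio of -0.29. Its other probe set, which carries the suffix _s, had 2640.0 and 2266, a log2 ratio of 0.22. The probe sets disagreed in sign, and their mean was -0.04.

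Amino acid carriers held no gene past 1.5-fold among 7. The aspartate/glutamate carriers of the malate-aspartate shuttle, Slc25a13 (citrin, the liver form) and Slc25a12 (aralar), had signals of 4296 and 4959, and of 572 and 688. Their log2 ratios were -0.21 and -0.27, and 0.07 and 0.01 when scaled on the hybridization controls. Slc25a15, the ornithine carrier of the urea cycle, had 8389.6 and 8477, a log2 ratio of -0.01, and -0.25 on its other probe set. Slc25a22, a glutamate carrier gene, had 3424 and 3126, a log2 ratio of 0.13.

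Slc25a29, a carrier of basic amino acids, had the highest ratio of the group. Its signals were 1678 and 1236 on the brightest probe set and 1010.3 and 904 on the next, log2 ratios of 0.44 and 0.16. Slc25a44, a carrier of branched-chain amino acids, had 1244 and 1356, a log2 ratio of -0.12, while its other probe sets had 0.19 and 0.17. Slc25a38, the glycine carrier that feeds heme synthesis, had 990.4 and 1119.6, a log2 ratio of -0.18. Slc25a29 and Slc25a47 are next to each other in the RefSeq gene order, with log2 ratios of 0.44 and 0.01.

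Iron and glutathione carriers differed little between the pools. The mitoferrin genes Slc25a28 and Slc25a37, which import iron, had signals of 845 and 848, and of 1155 and 1336, log2 ratios of -0.0046 and -0.21. The glutathione carrier gene Slc25a39 had 18279 and 18424 on its brightest probe set, a log2 ratio of -0.01, and its dimmer probe sets above the floor had -0.05, -0.16 and -0.16. The only erythroid marker above the floor, Alas2, had a log2 ratio of 0.08.

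In the branch of uncoupling protein relatives, Slc25a30 was the single gene above the floor. It had signals of 1118 and 921, a log2 ratio of 0.28. Its other 3 probe sets above the floor had log2 ratios of 0.10, 0.54 and 0.96, the last at signals of 342 and 175 with the control under the floor. All 4 lay above 0, and their mean of 0.47 was under 1.5-fold. Ucp1 and Ucp3, relatives outside the set, were under the floor, with signals of 30.7 and 13.2, and of 204 and 152.

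The other 10 carrier genes were under the floor, with signals from 3.4 to 254 on their brightest probe sets, and their ratios are not interpreted. Among them Slc25a31, the testis ADP/ATP exchanger, had 3.4 and 25.4, and Slc25a41 had 13.4 and 28.4. The ornithine carrier gene Slc25a2 had 146 and 142, and the glutamate carrier gene Slc25a18 had 153 and 119. Slc25a40, the paralog of Slc25a39, had 150.3 and 146, and Slc25a35 had 181 and 148. The brain carriers Slc25a27 and Slc25a14 had 254 and 189, and 19.2 and 20.8. Slc25a48 had 81.0 and 79.6, and Slc25a54 had 40 and 53.0. MAS5 detection calls were not used here, so these signals cannot be told from background.

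Of the 35 genes, 12 had several probe sets above the floor and 23 had 1. In 8 of the 12 the probe sets did not share a sign, which includes genes near 0 such as Slc25a5. The median distance between the brightest and the second probe set was 0.26 for the 12 genes, beside 0.22 for all 3860 genes with such a pair. Of the 35 ratios, 20 kept their sign under median centring, quantile normalization, loess correction and hybridization control scaling. The 4 genes past 1.5-fold were among these.

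**Figure D3:**
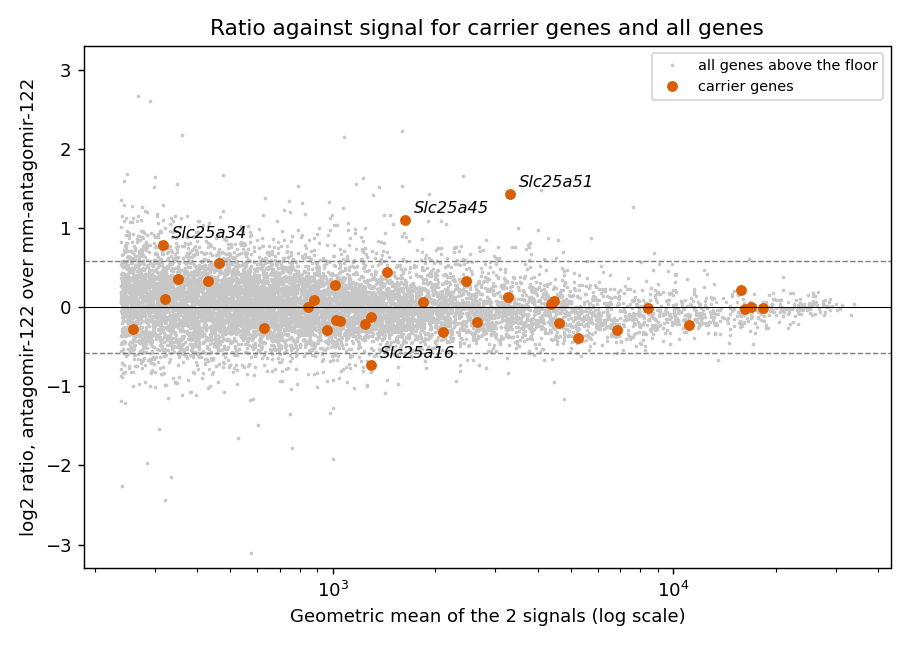
Log2 ratio of antagomir-122 over mm-antagomir-122 (vertical axis) against the geometric mean of both signals (horizontal log axis, intensity units) for 10003 genes (grey) and 35 carriers (orange); dashed lines are 1.5-fold. Slc25a51 and Slc25a45 lie above the dense grey band at their signals, Slc25a34 lies where the band is widest and Slc25a16 lies at its lower edge.

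The enzymes that use what the carriers move were taken from lists written from general knowledge. Their counts past 1.5-fold stand beside the 5.12% of all genes that were higher and the 2.62% that were lower as deposited, and with lists this short 1 gene can exceed either share. Among malate-aspartate shuttle enzymes, 0 of 4 passed 1.5-fold, with Got1 at -0.37, Mdh1 at -0.28 and Mdh2 at 0.19 on the log2 scale. Other probe sets of Mdh1 had 0.03 and -0.06, and that of Mdh2 had -0.11.

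Of 6 enzymes around citrate and pyruvate, 1 was at least 1.5-fold higher and 0 lower. Cs, citrate synthase, had signals of 5033 and 2864, 1.76-fold higher, and its other probe sets had log2 ratios of 0.88 and 0.17. Me1, the cytosolic malic enzyme, had -0.58 on its brightest probe set and 0.08 on the other. Mdh1, given above, also belongs to this list. Slc25a1 and Cs had opposite signs; with hybridization control scaling they had -0.11 and 1.09.

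Of 6 urea cycle enzymes, 1 was at least 1.5-fold lower and 0 higher. That was Ass1, at 245 and 531, although the far brighter signals of a probe set it shares with Gm5424 were 24745 and 24961. Asl, argininosuccinate lyase, and Otc, ornithine transcarbamylase, had log2 ratios of -0.34 and -0.19. Of 9 genes of the pyruvate dehydrogenase complex and its regulators, Dld, the dihydrolipoamide dehydrogenase, was 1.51-fold lower, and 0 were 1.5-fold higher. With hybridization control scaling Dld had a log2 ratio of -0.32, under 1.5-fold, and Pdk4 was past 1.5-fold higher at 0.67. Dlat, another subunit, had -0.44, with -0.31 and 1.14 on other probe sets, and the kinase Pdk4 had 0.40 as deposited. In the carnitine shuttle 0 of 5 passed, with Cpt2 at 0.26, Crot at -0.16 and Crat at -0.10. The other probe sets of Cpt2 and Crat had -0.03 and -0.18.

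Among 11 genes of heme and iron-sulfur synthesis, Abcb10, a mitochondrial transporter of the heme pathway, was 1.52-fold lower (-0.60, and -0.68 on its other probe set), and 0 were 1.5-fold higher. With hybridization control scaling Abcb10 had a log2 ratio of -0.33, under 1.5-fold, and Alas1 was past 1.5-fold higher at 0.65. Cpox had -0.48 and 0.01 on its probe sets, and Alas1, the first enzyme of the pathway, had 0.38 and 0.39 as deposited. Of 13 porins and import factors, Timm9, a chaperone that guides carrier proteins to the inner membrane, was 1.52-fold lower, with signals of 509 and 776. Its log2 ratio of -0.61 became -0.33 with that scaling, also under 1.5-fold. Timm8a1 had -0.36 and -0.72, and Timm8b had 0.30. Both glycerol phosphate shuttle enzymes were under 1.5-fold on their brightest probe sets, Gpd1 at 0.07 and Gpd2 at -0.27. Other probe sets of Gpd1 had 0.19 and 0.63, the last past 1.5-fold, and that of Gpd2 had -0.05. The family relatives Mtch1 and Mtch2 had -0.32 and 0.0047.

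Other nuclear-encoded mitochondrial genes had medians below that of the carriers. Complex I subunits had a median log2 ratio of -0.23 over 41 genes, with 39 below 0 as deposited and 17 with hybridization control scaling, and 0 past 1.5-fold. Over all 10003 genes, 4965 lay below 0 as deposited and 1593 with that scaling. Mitochondrial ribosomal proteins had -0.23 over 76 genes, with 59 below 0 as deposited and 29 with that scaling. As deposited 4 were at least 1.5-fold lower (5.26%, against 2.62% of all genes) and 0 higher. With that scaling 1 was lower and 2 were higher. ATP synthase genes had -0.18 over 16 genes, with 15 below 0 as deposited and 2 with that scaling, and 0 past 1.5-fold as deposited. Atp5o had -0.48, Atp5b -0.32 and the inhibitor Atpif1 0.43. With hybridization control scaling Atpif1 was past 1.5-fold higher at 0.71 on its brightest probe set. Its other probe set, close to the floor at 244 and 240, had a log2 ratio of 0.02 as deposited. Other solute carrier families had 0.05 over 173 genes. As deposited 16 were at least 1.5-fold higher (9.25%, against 5.12% of all genes) and 4 lower (2.31%, against 2.62%). With hybridization control scaling these counts were 37 and 2, while 16.9% and 0.63% of all genes passed. The medians with loess correction were 0.06 for the carriers, -0.20 for complex I, -0.19 for the mitochondrial ribosome and 0.06 for the other solute carriers. Scaled on the hybridization controls they were 0.27, 0.04, 0.05 and 0.33. With 1 array per group none of these differences could be tested.

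**Figure D4:**
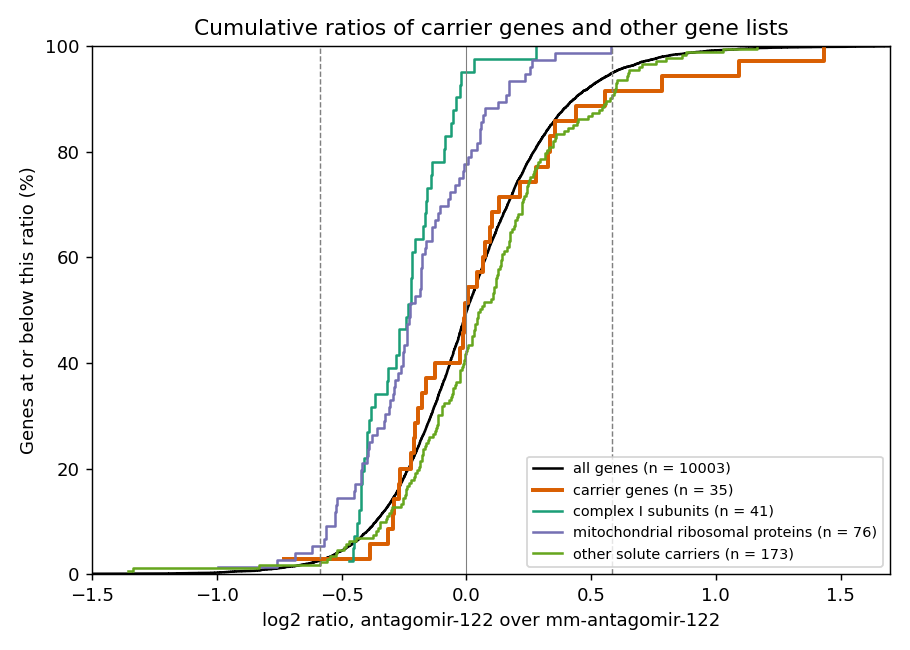
Cumulative share of genes (vertical axis, %) at or below each log2 ratio of antagomir-122 over mm-antagomir-122 (horizontal axis), as deposited, for the 35 carriers, 41 complex I subunits, 76 mitochondrial ribosomal proteins, 173 other solute carriers and all 10003 genes. The carrier curve follows that of all genes through its middle, while the complex I and mitochondrial ribosome curves lie to the left, with medians of -0.23 each; scaling on the hybridization controls would move every curve right by 0.27.

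Markers of immune cells differed between the pools beside these ratios. All 12 markers of Kupffer cells, the resident macrophages of liver, and other macrophages lay above 0, with summed signals of 73840 and 55900 and a median log2 ratio of 0.40. Of 6 neutrophil markers above the floor 5 did, all but Elane, which had signals of 261 and 323. Of these 5, Mpo, at 400 and 164, and Ltf, at 368 and 198, had control signals under the floor. Summed neutrophil signals were 8013 and 2451, of which S100a8, at 3442 and 739, was the largest part. All 6 lymphocyte markers above the floor had ratios above 0, with summed signals of 6526 and 3964. With median centring, quantile normalization or loess correction 5 of these 6 did. Ighm, at 2784.5 and 1309, and Ptprc, at 2173 and 1527, made up most of both sums. The brightest probe set of Ighm had a log2 ratio of 1.09, and its others had 0.27, 0.42 and 0.08. Cd79a, at 279.5 and 207.5, had its control signal under the floor. Over all genes, 50.3% lay above 0 as deposited. Such sums weigh the brightest probe sets most. No marker of these lists had a signal of 0. Their part in the ratios of Slc25a51, Slc25a45 and Slc25a34 was not tested, and in pooled tissue a change in cell numbers and a change in RNA per cell cannot be told apart.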

How the data were processed

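Liver RNA pools were measured on 2 arrays, 1 per group, and samples were grouped by title. The authors deposited 1 linear intensity per probe set and array. MAS5, in no stated version, is the tool that the submitters' processing notes name. The 2% trimmed mean of the intensities was 500.0 on both arrays. The genome build of the annotation was not given in the sources used here. Of 45101 probe sets, 64 were controls, 34945 had 1 gene in the platform annotation, 932 had several and 9160 had none. Identifiers of 34741 matched the RefSeq gene table of GRCm38.p6, and 0 symbols changed.

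Ratios were log2 of antagomir-122 over mm-antagomir-122 signal with no pseudocount, computed with Python 3.11.15, pandas 2.3.3 and statsmodels 0.14.6. A gene was kept if its brightest probe set reached the 60th percentile floor. With 1 array per group, no p-value is given, and the number of arrays limits the precision. Members and lists were chosen with earlier results of these data known. Every carrier gene is named, as are members of partner lists past 1.5-fold and the 3 with the largest ratio. Complex I subunits, mitochondrial ribosomal proteins and other solute carriers were taken by symbol pattern, and are counted without naming their members. Listed enzymes and markers that no probe set measured alone were not analysed here.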

Additional observations from a re-analysis of the deposited data

How the results depend on the processing

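The alternatives were median centring, scaling on the hybridization controls, quantile normalization, loess correction (span 0.3), a floor at the 40th or 80th percentile or none, and a pseudocount of 32. Others were the mean over probe sets, leaving out suffixed probe sets, setting signals under the floor to it, and thresholds of 1.4-fold and 2-fold. Scaled on the hybridization controls, 8 carriers were at least 1.5-fold higher and 0 lower, with a median log2 ratio of 0.27; over all genes these shares were 16.9% and 0.63%. Without a floor, 3 carriers were at least 1.5-fold lower, the added ones being Slc25a31 and Slc25a41 at the dim signals given above, and at a threshold of 2-fold 0 were lower. The other 32 values of both counts and the median stayed within 1.5 times the count, or within 0.1 of the median, as deposited. Slc25a51 ran from 0.71 (mean over probe sets) to 1.71, Slc25a45 from 1.04 to 1.37, Slc25a34 from 0.70 to 1.06 and Slc25a16 from -0.79 to -0.46. Slc25a34 gave no value with the floor at the 80th percentile. Over all genes, the higher genes among those past 1.5-fold were 66.1% as deposited, 51.6% with median centring, 96.4% with hybridization control scaling, 57.6% with quantile normalization and 58.1% with loess correction. Counts over all genes that moved by more than 1.5 times from 512 higher and 262 lower were 1693 and 63 with hybridization control scaling, 1163 and 531 with the floor at the 40th percentile, 184 and 98 with that at the 80th, 2766 and 1714 without one, 816 and 485 at 1.4-fold, and 83 and 31 at 2-fold. No paired analysis was possible because each group had 1 array. Leaving out a replicate was not possible for the same reason. Dim signals limit the 10 genes under the floor.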
